A study of Mus musculus with 16 samples.

Results

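Basal keratinocytes of mouse tail interfollicular epidermis (IFE, the skin surface between hair follicles) that had expressed SmoM2 for 4 weeks were compared with IFE cells of untreated mice. The comparison uses 6 of the series' 16 arrays, chosen by their labels alone: 3 arrays of SmoM2-positive IFE cells sorted 4 weeks after tamoxifen, and 3 arrays of IFE cells from mice that received no tamoxifen. Both groups came from K14CREER/Rosa-SmoM2-YFP mice of mixed strain background, so the untreated animals carried the same Cre and the same silent transgene. K14CREER is a Cre recombinase that needs tamoxifen and is driven by the keratin 14 promoter, which is active in basal keratinocytes. The Rosa-SmoM2-YFP allele gives SmoM2 fused to a yellow fluorescent protein once Cre has recombined it. SmoM2, tamoxifen itself, the weeks since it was given and the sorting of SmoM2-positive cells therefore cannot be told apart in this design. The labels give no ages and leave it unsaid whether a replicate is a single mouse or a pool. The SE and p-values below come from 1 fit over the 14 IFE arrays, so they also draw on the spread within the series' 8 other IFE arrays, which hold SmoM2 cells sorted 3 days, 1 week or 10 weeks after tamoxifen and SmoM2 cells of mice that also lost β-catenin. The p-values thus rest on the spread between arrays of a group, which may be technical. A fit on the 6 arrays alone gave 359 calls, 290 of them shared with the 463 reported below.

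Hedgehog ligands bind the receptor Patched1, which otherwise holds Smoothened inactive, and active Smoothened acts through the primary cilium to switch on the Gli transcription factors. SmoM2 is a mutant Smoothened that signals without ligand, and continuous hedgehog signalling of this kind is the known driver of basal cell carcinoma. Hair follicles form in the embryo from placodes that need both hedgehog and Wnt signals. Mouse tail IFE is patterned into scales, whose cells make hair-type keratins, and interscale skin, whose cells keratinise in the ordinary way.

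Values are log2 array signals as the authors deposited them, each difference is the SmoM2 mean minus the untreated mean ± SE, and each group has 3 arrays. Adjusted p-values are from limma, with Benjamini-Hochberg adjustment over the 14285 genes tested and a threshold of 0.05. The array medians lay between 5.42 and 5.52 in the SmoM2 group, against 5.38 to 5.4999 in the untreated group. Basal keratinocyte genes were high in all 6 arrays: Krt5 lay between 13.49 and 13.88 in SmoM2 cells and between 13.75 and 14.23 in untreated cells. The transcription factor Trp63, which maintains stratified epithelium, lay between 12.22 and 12.50 in SmoM2 cells and between 12.25 and 12.48 in untreated cells. The basal genes Krt14, Col17a1, Itga6 and Itgb4 differed by −0.86, −0.74, −0.73 and −0.59, and none passed. Among these, the groups overlapped only in Itgb4. The gap between 3′ and 5′ probe sets, a measure of RNA integrity, was largest in replicate 1 of both groups. The 3′ probe set of Gapdh exceeded its 5′ probe set by 2.15 in replicate 1 of SmoM2 cells and by 1.88 in replicate 1 of untreated cells, while the other arrays had gaps of 0.08 to 0.56. For Actb the gaps of replicates 1 to 3 were 2.16, 1.54 and 0.73 in SmoM2 cells, against 1.96, 0.80 and 0.72 in untreated cells. At each replicate number the SmoM2 array had the larger gap for both genes. Sex-linked signals were not balanced: 3 Y-linked genes averaged 8.41, 7.58 and 6.02 in SmoM2 arrays, against 3.41, 8.18 and 3.43 in untreated arrays. The female-expressed transcript Xist had 6.50, 8.12 and 12.52 in SmoM2 arrays, against 11.11, 7.82 and 11.37 in untreated arrays. SmoM2 replicate 3 thus held both signals, with the highest Xist of the 6 arrays. Whether any array mixed cells of both sexes was not tested.

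Of the 14285 genes tested, 463 passed (3.24%), 349 of them higher (2.44%) and 114 lower (0.798%) in SmoM2 cells. Whether past the threshold or not, 6326 of the 14285 had a positive difference. The counts by sign given for gene lists below are to be read beside that share, and none of them was tested. In all 463 the 3 SmoM2 arrays lay entirely on one side of the 3 untreated arrays, a separation found in 17.3% of all genes tested (9.17% higher, 8.12% lower). At least a 2-fold change was seen in 431 of them (3.02% of all tested). The rises had a median of 1.76 and the falls a median of −1.96 on the log2 scale, and 49 rises and 16 falls exceeded 3 log2 units. For 47 of the genes that rose, all 3 untreated arrays lay under the 40th percentile of their array, and for 16 of the genes that fell all 3 SmoM2 arrays did. The first set includes Cdh11, Prss35, Mmp11, Mfsd4a, Gm5084, Stk36, Cyp27b1 and Pcdhb21. The second includes Wnt3, Ogn, Cntn1, Ugt8a, Pm20d1, Ces2f, Hnmt and Ptger3. With each array centred on its 75th percentile, 307 genes were higher and 181 lower, which moves the higher share to 62.9%, against 75.4% on the deposited scale. Blocking on the replicate number, 873 genes passed (6.11%), 558 higher (3.91%) and 315 lower (2.21%), and 461 of them are shared with the 463. Single arrays weighed heavily: the count was 139 without SmoM2 replicate 1, 237 without SmoM2 replicate 2, 132 without untreated replicate 1, 13 without untreated replicate 2 and 49 without untreated replicate 3. Untreated replicate 2 is the only untreated array with a high Y-linked signal, and with that signal as a covariate 403 genes passed, 338 of them shared.

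**Figure D1:**
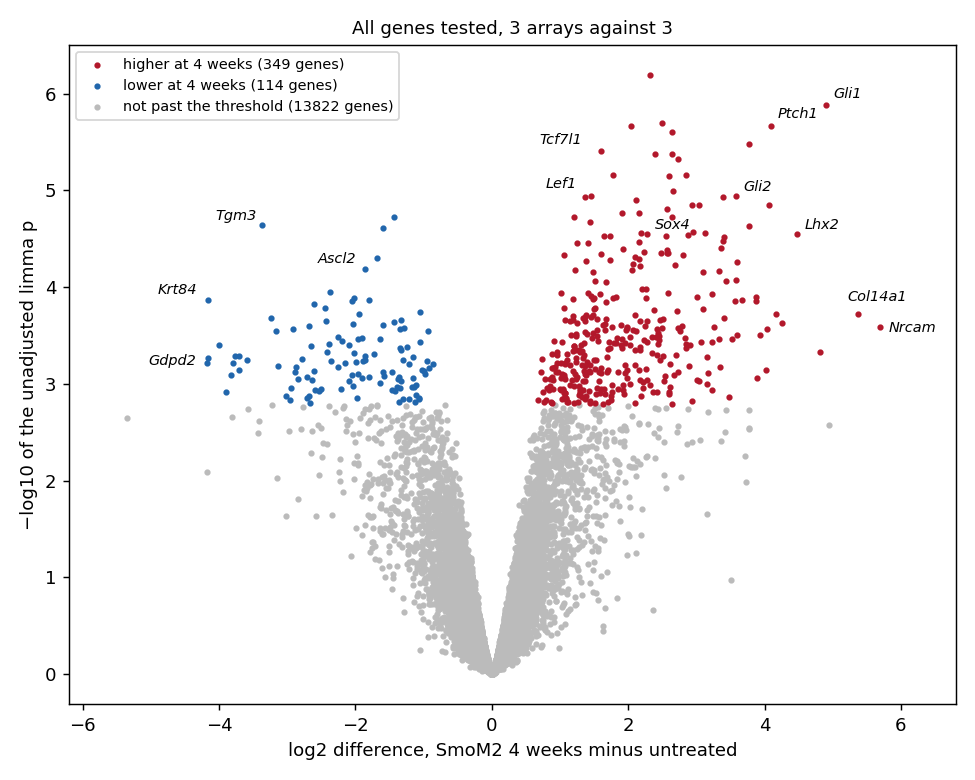
Each point is 1 of the 14285 genes, placed by its log2 difference (SmoM2 4 weeks minus untreated, horizontal axis) and by the −log10 of its unadjusted limma p (vertical axis). Red points are the 349 genes that rose and blue points the 114 that fell, and Gli1 and Ptch1 stand near the top of the right side.

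The 12 genes that passed in all 20 alternative settings, those that leave out an array included, were all higher in SmoM2 cells. They were Gli1, Ptch1, Lef1, Tcf7l1, Scnn1g, Cxxc5, Trib2, Vasn, Akap2, Fam110b, Lap3 and Mfsd4a, a list read from the results rather than chosen beforehand. Scnn1g, a subunit of the epithelial sodium channel, averaged 7.76 in SmoM2 cells and 5.03 in untreated cells, a difference of 2.73 ± 0.34. Vasn, a membrane protein that binds TGF-β, averaged 7.20 in SmoM2 cells and 4.70 in untreated cells, a difference of 2.498 ± 0.29. Trib2, a pseudokinase, averaged 9.60 and 7.21 in SmoM2 and untreated cells, and Lap3, a leucine aminopeptidase, 12.10 and 9.46. In all 14 alternatives that keep every array, 142 of the 463 genes passed.

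The hedgehog pathway rose at its receptor and its transducers, while its ligands did not pass. Of 18 pathway genes tested, 6 rose and none fell, with a median difference of 0.78, against −0.05 over all genes tested. Gli1, the transcription factor that serves as the standard readout of the pathway, had 10.55, 10.83 and 9.95 in SmoM2 cells, against 5.73, 5.58 and 5.30 in untreated cells. The lowest SmoM2 array thus lay more than 4 log2 units above the highest untreated array, and the difference was 4.91 ± 0.54 (adjusted p = 0.0059). Ptch1, the inhibitory receptor and itself a target gene, had 13.60, 12.92 and 12.64 in SmoM2 cells, against 9.10, 8.66 and 9.11 in untreated cells. Its rise of 4.09 ± 0.47 (adjusted p = 0.0059) again left a wide gap between the groups.

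Gli2, the main activating Gli factor in skin, had 11.58, 11.28 and 10.996 in SmoM2 cells, against 8.10, 7.80 and 7.22 in untreated cells, and rose by 3.58 ± 0.49 (adjusted p = 0.0088). Smo had 11.48, 10.98 and 11.01 in SmoM2 cells, against 9.80, 9.80 and 10.01 in untreated cells, and rose by 1.29 ± 0.27 (adjusted p = 0.028). Whether this probe set also reads the SmoM2 transgene was not tested. Kif7, the kinesin that organises Gli proteins at the tip of the cilium, rose by 1.53 ± 0.33, and Stk36, a Fused-type kinase, rose by 0.74 ± 0.16, with all 3 untreated signals under the 40th percentile of their array. All 8 transducers tested had positive differences, Gli3 with 0.42 (adjusted p = 0.72) and Sufu, the inhibitor that holds Gli proteins in the cytoplasm, with 0.83 (adjusted p = 0.12). The ligand Shh differed by 0.04 ± 0.33 (adjusted p = 0.98). Among co-receptors, which present the ligand, Cdon differed by −1.03 (adjusted p = 0.19), with all 3 SmoM2 arrays below the untreated ones, and Gas1 by 0.22 (adjusted p = 0.74).

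Among 14 hedgehog target genes, Gli1 and Ptch1 rose and Ccnd2 and Igfbp3 fell, with a median of 0.61 (4 rose and 2 fell with the replicate block). Hhip, a secreted hedgehog-binding target, had 10.29, 11.19 and 8.84 in SmoM2 cells, against 6.78, 5.09 and 7.12 in untreated cells. The groups did not overlap, but the arrays of each group lay far apart and the difference of 3.77 ± 1.01 did not pass (adjusted p = 0.070). Mycn, a growth-promoting factor of the Myc family, had 11.80, 9.09 and 10.28 in SmoM2 cells, against 7.23, 6.07 and 6.56 in untreated cells, a difference of 3.77 that did not pass (adjusted p = 0.055). With the replicate block Mycn passed (adjusted p = 0.049), and over its 20 alternatives the adjusted p ranged from 0.011 to 0.18. Ccnd2, a D-type cyclin, had 10.56, 10.54 and 11.24 in SmoM2 cells, against 11.75, 12.15 and 11.97 in untreated cells, and fell by 1.17 ± 0.27 (adjusted p = 0.041). The related cyclin Ccnd1 differed by 0.19 (adjusted p = 0.92).

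Of 28 primary cilium genes tested, 1 passed. Tulp3, an adaptor that carries membrane receptors into the cilium, had 10.27, 9.42 and 9.36 in SmoM2 cells, against 8.01, 7.21 and 7.78 in untreated cells, a rise of 2.02 ± 0.41 (adjusted p = 0.027). Another probe set of Tulp3 pointed the other way. Of the 15 intraflagellar transport genes, which move cargo along the cilium, 14 had positive differences, against 6326 of all 14285 genes tested. Their median was 0.33, and none passed.

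**Figure D2:**
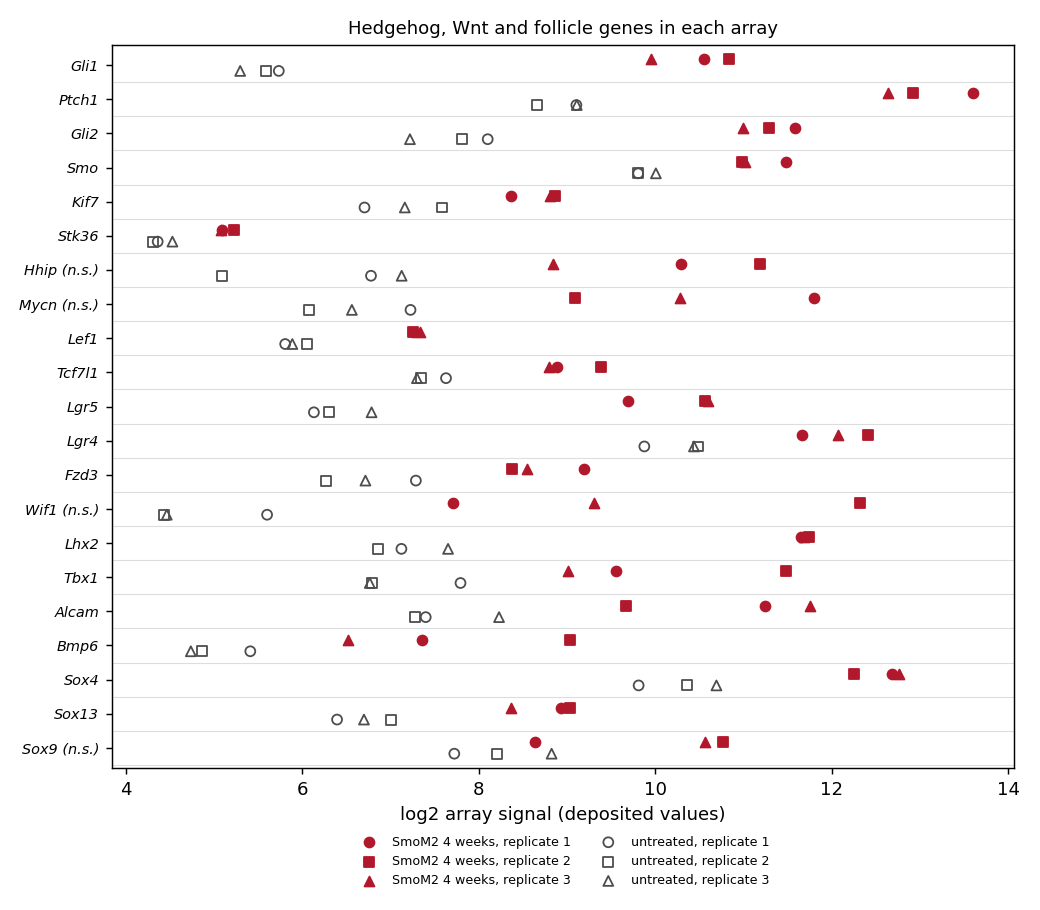
Each row is a gene, with the log2 signal on the horizontal axis, filled red symbols for the 3 SmoM2 arrays and open grey symbols for the 3 untreated arrays, and the same shape for the same replicate number; n.s. marks genes that did not pass. The groups are apart in every row except Sox9, and Lhx2 and Lef1 have the tightest SmoM2 arrays.

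Of 60 Wnt pathway genes tested, 6 rose and 4 fell with a median of 0.10, or 12 and 6 with the replicate block. The rises were the receptors Lgr5, Lgr4, Fzd3 and Fzd1 and the nuclear factors Lef1 and Tcf7l1, and the falls were the ligands Wnt3, Wnt4 and Wnt10a and the target Ascl2. Lgr5, an R-spondin receptor that marks follicle stem cells, had 9.69, 10.56 and 10.60 in SmoM2 cells, against 6.13, 6.30 and 6.78 in untreated cells, and rose by 3.88 ± 0.70 (adjusted p = 0.020). Its relative Lgr4 already had 9.87 to 10.48 in untreated cells and rose by 1.78 ± 0.36 to between 11.67 and 12.41. Fzd3, a Frizzled receptor, had 9.19, 8.37 and 8.55 in SmoM2 cells, against 7.29, 6.27 and 6.71 in untreated cells, and rose by 1.95 ± 0.42.

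Lef1, the DNA-binding partner of β-catenin in hair placodes, had 7.25, 7.26 and 7.34 in SmoM2 cells, against 5.81, 6.06 and 5.89 in untreated cells. The SD was 0.05 in SmoM2 cells and 0.13 in untreated cells, and the rise was 1.37 ± 0.19 (adjusted p = 0.0088). Tcf7l1, the repressive family member of follicle stem cells, had 8.89, 9.39 and 8.80 in SmoM2 cells, against 7.63, 7.35 and 7.30 in untreated cells, a rise of 1.60 ± 0.20 (adjusted p = 0.0060). Wnt3 had 3.53, 3.24 and 3.67 in SmoM2 cells, against 6.76, 5.30 and 6.34 in untreated cells, and fell by 2.65 ± 0.54 (adjusted p = 0.027). All 3 SmoM2 signals lay under the 40th percentile of their array. The Wnt3 probe set carries the manufacturer's x mark, given where probes can match related sequences. The ligands had a median of −0.52, and 7 of the 13 tested had negative differences. With the replicate block 2 of the 13 rose and 4 fell, and no difference between the roles was tested.

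None of the 8 genes tested that were listed as Wnt targets passed upward, and their median was −0.38. Lgr5 and Lef1, which rose, were listed as receptor and transducer and are not in that count. Axin2, the usual feedback readout of β-catenin signalling, had 8.18, 7.24 and 7.51 in SmoM2 cells, against 8.29, 7.94 and 8.29 in untreated cells. These groups overlapped and the difference of −0.53 ± 0.31 did not pass (adjusted p = 0.50). Ascl2, a basic helix-loop-helix factor, had 6.14, 6.08 and 6.21 in SmoM2 cells, against 7.97, 7.93 and 8.12 in untreated cells, and fell by 1.86 ± 0.31 (adjusted p = 0.014). Wif1, a secreted Wnt inhibitor, had 7.71, 12.31 and 9.30 in SmoM2 cells, against 5.60, 4.43 and 4.46 in untreated cells. The 3 SmoM2 arrays thus spanned more than 4 log2 units, and the difference of 4.94 ± 1.30 did not pass (adjusted p = 0.066; 0.031 with the replicate block, 0.024 to 0.20 over 20 alternatives).

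Of 37 follicle stem cell and placode genes tested 9 rose and 1 fell, with a median of 0.49 (10 and 3 with the replicate block). Lhx2, a LIM homeodomain factor of placodes and bulge stem cells, had 11.65, 11.74 and 11.68 in SmoM2 cells, against 7.12, 6.86 and 7.65 in untreated cells. It rose by 4.48 ± 0.68 (adjusted p = 0.010), with SmoM2 arrays within 0.1 of each other. Tbx1, a T-box factor of follicle stem cells, had 9.55, 11.48 and 9.01 in SmoM2 cells, against 7.79, 6.79 and 6.76 in untreated cells, and rose by 2.90 ± 0.59 (adjusted p = 0.027). Alcam, an immunoglobulin-type adhesion molecule, had 11.24, 9.67 and 11.75 in SmoM2 cells, against 7.40, 7.27 and 8.23 in untreated cells, and rose by 3.25 ± 0.63. Bmp6, a BMP ligand of bulge cells, had 7.36, 9.03 and 6.52 in SmoM2 cells, against 5.41, 4.86 and 4.74 in untreated cells, and its rise of 2.64 ± 0.64 passed narrowly (adjusted p = 0.0499). Lef1, Tcf7l1, Lgr5, Ptch1 and Krt17 are also on this list.

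Several classical bulge genes did not pass. Sox9 had 8.64, 10.77 and 10.56 in SmoM2 cells, against 7.72, 8.20 and 8.82 in untreated cells. SmoM2 replicate 1 lay below the highest untreated array, and the difference was 1.74 ± 0.59 (adjusted p = 0.16). Cd34, a surface marker of bulge cells, lay under the 40th percentile in all 6 arrays. Nfatc1 differed by 1.28 (adjusted p = 0.20), Krt15 by −0.36 (adjusted p = 0.59) and the placode cadherin Cdh3 by 0.04 (adjusted p = 0.99). Edar, the ectodysplasin receptor of placodes, differed by 0.89 (adjusted p = 0.46).

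Among 35 Sox, Fox and Hox factors tested, 3 rose and 1 fell, with a median of 0.27 (4 and 5 with the replicate block). Sox4, a SoxC factor of epithelial progenitors, had 12.68, 12.25 and 12.76 in SmoM2 cells, against 9.81, 10.36 and 10.69 in untreated cells, and rose by 2.28 ± 0.34 (adjusted p = 0.010). Sox13 rose by 2.08 ± 0.34 (adjusted p = 0.013), and its SmoM2 arrays lay between 8.36 and 9.03, against 6.39 to 7.003 in untreated cells. Hoxc8, a positional factor of the trunk, had 7.96, 8.76 and 6.40 in SmoM2 cells, against 4.91, 4.20 and 4.49 in untreated cells, and rose by 3.17 ± 0.70 (adjusted p = 0.034). Of 16 Hox genes tested 14 had positive differences, with a median of 0.35, but no other passed. Foxp2, a forkhead repressor, had 5.60, 4.90 and 6.38 in SmoM2 cells, against 8.02, 8.66 and 9.07 in untreated cells, and fell by 2.96 ± 0.71 (adjusted p = 0.047).

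Keratins of tail scales and of suprabasal cells were among the deepest falls, while the companion layer keratin Krt17 rose. Of 35 keratins tested 1 rose and 3 fell, with a median of −0.19. Krt24, a keratin counted with the follicle stem cell genes, was the 1 fall of that list (−2.05 ± 0.46, adjusted p = 0.035). Krt36, a hair-type keratin of the scales, had 9.36, 6.77 and 10.56 in SmoM2 cells, against 13.22, 13.08 and 12.87 in untreated cells, and fell by 4.16 ± 0.88 (adjusted p = 0.031). Krt84, another hair-type keratin of the scales, had 8.24, 7.18 and 9.84 in SmoM2 cells, against 12.51, 12.92 and 12.30 in untreated cells, and fell by 4.16 ± 0.74 (adjusted p = 0.020). Krt2, a keratin of the upper spinous layer, had 9.78, 6.89 and 10.37 in SmoM2 cells, against 12.74, 13.12 and 12.69 in untreated cells, and fell by 3.83 ± 0.85 (adjusted p = 0.035). In each of these the untreated arrays were tight, the SmoM2 arrays spread over more than 2.5 log2 units, and SmoM2 replicate 2 was the lowest. Fewer suprabasal or scale cells in the sorted fraction and less keratin RNA per cell cannot be told apart in these bulk samples, and the same holds for every gene described here.

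Tgm3, the transglutaminase that cross-links the cornified envelope and the hair shaft, fell beside them. It had 6.47, 7.24 and 8.11 in SmoM2 cells, against 10.11, 10.85 and 10.96 in untreated cells, and fell by 3.37 ± 0.50 (adjusted p = 0.010). The promoters of these 4 differentiation genes are shown because their genes moved together. Each covers 250 bases before to 50 after the start in RefSeq (GRCm38.p6), read 5′ to 3′ on the gene's strand, and capitals mark TATAA, searched on both strands. Krt36 lies on the minus strand at chr11:100105577-100105876, Krt84 on the minus strand at chr15:101532771-101533070, Krt2 on the minus strand at chr15:101818120-101818419 and Tgm3 on the plus strand at chr2:130012090-130012389.
Krt36: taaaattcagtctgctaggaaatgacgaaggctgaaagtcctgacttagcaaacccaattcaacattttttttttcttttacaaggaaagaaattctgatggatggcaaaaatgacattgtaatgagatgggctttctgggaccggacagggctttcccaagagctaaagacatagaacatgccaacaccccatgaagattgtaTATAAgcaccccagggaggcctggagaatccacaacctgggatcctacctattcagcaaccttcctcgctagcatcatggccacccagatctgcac
Krt84: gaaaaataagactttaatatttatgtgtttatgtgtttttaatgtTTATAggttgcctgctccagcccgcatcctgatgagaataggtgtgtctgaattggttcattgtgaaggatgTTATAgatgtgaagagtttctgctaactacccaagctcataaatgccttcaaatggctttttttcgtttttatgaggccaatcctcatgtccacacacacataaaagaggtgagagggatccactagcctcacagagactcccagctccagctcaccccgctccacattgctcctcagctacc
Krt2: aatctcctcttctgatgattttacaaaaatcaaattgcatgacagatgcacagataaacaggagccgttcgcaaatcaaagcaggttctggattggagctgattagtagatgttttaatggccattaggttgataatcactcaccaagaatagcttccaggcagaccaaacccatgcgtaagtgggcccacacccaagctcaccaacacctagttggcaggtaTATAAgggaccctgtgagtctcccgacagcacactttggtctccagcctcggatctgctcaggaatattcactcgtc
Tgm3: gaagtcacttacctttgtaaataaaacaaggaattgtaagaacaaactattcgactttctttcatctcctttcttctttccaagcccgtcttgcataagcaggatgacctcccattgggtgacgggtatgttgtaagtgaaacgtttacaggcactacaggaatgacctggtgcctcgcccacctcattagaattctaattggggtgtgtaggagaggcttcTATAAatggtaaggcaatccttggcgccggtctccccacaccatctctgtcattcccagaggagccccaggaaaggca
In Krt36, Krt2 and Tgm3 the match lies on the gene's strand and begins 46, 27 and 28 bases before the start. In Krt84 both matches lie on the opposite strand, 205 and 133 bases before the start, and so are printed as the reverse complement. A gene was counted as having the motif if any of its promoters held it. Among genes with a promoter available, these were 21.7% of the 92 that fell, 18% of the 266 that rose and 17.4% of the 11437 tested. Counted by promoter instead of by gene, the motif was present in 24.9% of all 32851. The Gli consensus GACCACCCA, searched on both strands, was present for 0 of the 266 genes and 0 of the 92. It was present for 0.227% of the genes tested, and by promoter in 0.253% of all promoters. At such low shares these counts cannot show a difference, and a match in this window is a description and not a binding site.

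Other keratins moved less. Krt17, the companion layer and stress keratin, had 12.47, 13.67 and 13.09 in SmoM2 cells, against 11.58, 10.63 and 10.80 in untreated cells, and rose by 2.07 ± 0.40 (adjusted p = 0.025). The stress keratin Krt16 differed by −0.32 (adjusted p = 0.93) and Krt6a by 0.15 (adjusted p = 0.94). The suprabasal pair Krt1 and Krt10 differed by −1.34 (adjusted p = 0.15) and −0.94 (adjusted p = 0.078), with no overlap of the groups in either gene. Krt14, the basal keratin whose promoter drives the Cre, had 13.42, 12.83 and 13.56 in SmoM2 cells, against 14.21, 14.19 and 14.003 in untreated cells. The difference of −0.86 did not pass (adjusted p = 0.074; 0.047 with the replicate block, 0.031 to 0.59 over 20 alternatives), and its probe set carries the x mark too. All 10 hair-type keratins tested had negative differences, and 8 of them lay within 0.5 of 0.

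**Figure D3:**
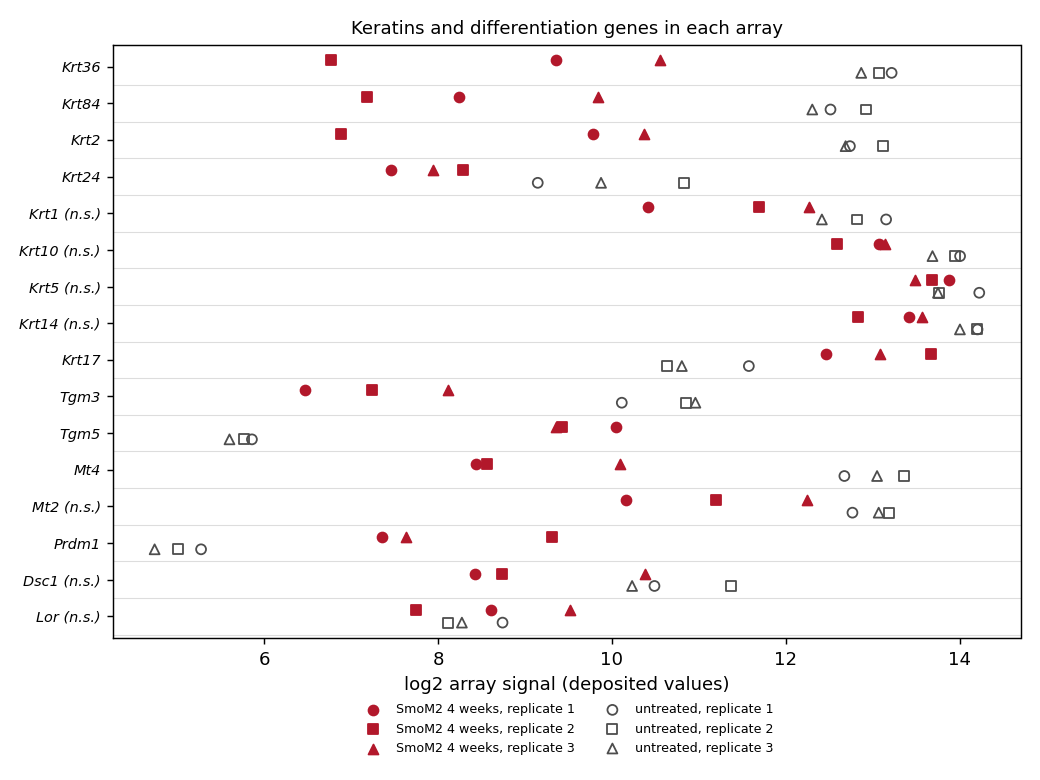
Each row is a gene, with the log2 signal on the horizontal axis, filled red symbols for the 3 SmoM2 arrays and open grey symbols for the 3 untreated arrays; n.s. marks genes that did not pass. Krt36, Krt84, Krt2, Tgm3 and Mt4 are low and spread in SmoM2 cells, and Krt17, Tgm5 and Prdm1 are high.

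Cornification and barrier genes did not move as a block: of 38 tested 2 rose and 1 fell, with a median of 0.01 (3 and 2 with the replicate block). The 2 transglutaminases that passed went opposite ways. Tgm5, which cross-links envelope proteins in the upper layers, had 10.05, 9.42 and 9.36 in SmoM2 cells, against 5.86, 5.76 and 5.60 in untreated cells, and rose by 3.87 ± 0.69 (adjusted p = 0.020). Prdm1, a zinc finger repressor known in terminally differentiating and sebaceous cells, had 7.35, 9.31 and 7.63 in SmoM2 cells, against 5.27, 5.01 and 4.74 in untreated cells, and rose by 3.09 ± 0.51 (adjusted p = 0.014). The 18 envelope proteins tested had a median of 0.16 and none passed, Lor among them (0.25, adjusted p = 0.88). None of 13 desmosome genes passed (median −0.06; Pkp2 alone rose with the replicate block, adjusted p = 0.018, 0.018 to 0.56 over 20 alternatives).

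Mt4, the metallothionein of stratified epithelia, had 8.44, 8.56 and 10.10 in SmoM2 cells, against 12.67, 13.36 and 13.05 in untreated cells, and fell by 3.99 ± 0.81 (adjusted p = 0.027). Of 19 metallothionein and oxidative defence genes it was the only call, with a median of −0.37, and 4 fell with the replicate block. Mt2 had 10.17, 11.20 and 12.25 in SmoM2 cells, against 12.77, 13.18 and 13.07 in untreated cells, a difference of −1.80 (adjusted p = 0.053; 0.020 with the block, 0.017 to 0.17 over 20 alternatives).

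Adhesion molecules included the largest rise of all. Of 49 tested 8 rose and 1 fell, with a median of 0.08 (10 and 3 with the replicate block). Nrcam, a neuronal immunoglobulin-type adhesion molecule, had 11.53, 11.13 and 10.16 in SmoM2 cells, against 5.24, 5.57 and 4.94 in untreated cells. The untreated signals lay near the array medians, the groups were more than 4 log2 units apart, and the rise was 5.69 ± 1.10 (adjusted p = 0.025). Cdh11, a cadherin known from mesenchymal cells, had 8.61, 8.99 and 7.80 in SmoM2 cells, against 3.78, 4.35 and 4.77 in untreated cells, and rose by 4.16 ± 0.78 (adjusted p = 0.024). Its untreated signals all lay under the 40th percentile of their array. Pcdh20, a protocadherin, rose by 3.56 ± 0.64, Mcam by 2.48 ± 0.39 and Cadm1 by 2.17 ± 0.49, the last 2 being immunoglobulin-type adhesion molecules. Cntn1, a contactin and the only adhesion gene to fall without the block, differed by −1.59 ± 0.36 (adjusted p = 0.036).

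Matrix genes of both the basement membrane and the interstitium rose in part. Col4a1, a chain of basement membrane collagen, had 12.54, 10.38 and 11.15 in SmoM2 cells, against 8.70, 7.79 and 7.36 in untreated cells, and rose by 3.40 ± 0.64 (adjusted p = 0.024). Its partner chain Col4a2 had 11.08, 9.22 and 10.08 in SmoM2 cells, against 7.52, 6.85 and 6.33 in untreated cells, and rose by 3.22 ± 0.57 (adjusted p = 0.020). SmoM2 replicate 1 was the highest and replicate 2 the lowest for both chains. They were the only calls among 34 basement membrane and hemidesmosome genes tested, whose median was −0.04 (3 rose and 2 fell with the replicate block). None of the 14 integrins passed without the block.

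Of 42 interstitial matrix genes tested 6 rose and 2 fell, with a median of 0.17 (6 and 4 with the replicate block). Col14a1, a fibril-associated collagen, had 11.96, 10.08 and 11.29 in SmoM2 cells, against 6.27, 5.36 and 5.58 in untreated cells, and rose by 5.37 ± 1.00 (adjusted p = 0.024). Col27a1, a fibrillar collagen, rose by 4.26 ± 0.81, the proteoglycan Bgn by 3.04 ± 0.69 and the glycoprotein Fbln2 by 2.28 ± 0.43. Ogn, a small proteoglycan, went the other way: it had 3.66, 3.84 and 4.30 in SmoM2 cells, against 7.61, 7.96 and 7.61 in untreated cells, and fell by 3.80 ± 0.82 (adjusted p = 0.032). Dcn, the proteoglycan decorin, had 12.53, 10.69 and 11.46 in SmoM2 cells, against 9.002, 8.67 and 9.22 in untreated cells, a rise of 2.59 ± 0.61 (adjusted p = 0.043). With the replicate block Dcn did not pass (adjusted p = 0.053, 0.019 to 0.15 over 20 alternatives).

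Dcn is also a fibroblast marker, and the summed signal of 14 dermal fibroblast genes lay between 11.49 and 12.80 in SmoM2 cells, against 10.76 to 11.22 in untreated cells. That gap rests on Dcn: without it the sum of the other 13 was 10.24, 10.26 and 10.69 in SmoM2 cells, against 10.25, 10.95 and 10.19 in untreated cells, and the groups overlapped. The fibroblast collagen Col1a2 had 8.38, 6.54 and 7.12 in SmoM2 cells, against 6.11, 6.69 and 5.70 in untreated cells, with overlap and a difference of 1.18 (adjusted p = 0.26). Col1a1 lay under the 40th percentile in all 6 arrays, with a difference of 0.31 (adjusted p = 0.63), and Col3a1 in 2 SmoM2 arrays and 1 untreated array, with −0.08 (adjusted p = 0.97). Lum lay under it in 2 SmoM2 and 3 untreated arrays, and the fibroblast receptor Pdgfra in 2 of each. Of the 12 fibroblast genes tested Dcn alone passed, and the median was 0.17. With the replicate block Twist2, a mesenchymal transcription factor, passed in its place (difference 1.23, adjusted p = 0.11; 0.012 with the block, 0.012 to 0.34 over 20 alternatives).

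Secreted and membrane proteases followed the matrix genes upward in part, with 3 of 24 tested higher, none lower and a median of 0.37 (5 and 0 with the replicate block). Prss35, a secreted serine protease relative, had 10.16, 6.66 and 8.73 in SmoM2 cells, against 3.71, 3.78 and 3.63 in untreated cells, and rose by 4.81 ± 1.00 (adjusted p = 0.029). Its untreated signals lay at the low end of the array and its SmoM2 arrays spanned more than 3 log2 units. Adamts1, a matrix protease, had 11.06, 9.81 and 11.04 in SmoM2 cells, against 7.13, 7.33 and 6.89 in untreated cells, and rose by 3.52 ± 0.70 (adjusted p = 0.026). Mmp11 rose by 0.78 ± 0.18.

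BMP and TGF-β genes had the third highest list median, 0.54, with 5 of 35 tested higher and none lower (9 and 1 with the replicate block). Fstl1, a secreted protein that binds activin and BMP ligands, had 9.60, 9.59 and 9.01 in SmoM2 cells, against 6.84, 5.11 and 5.498 in untreated cells, and rose by 3.59 ± 0.61 (adjusted p = 0.016). Inhbb, an activin subunit, had 10.25, 9.90 and 10.32 in SmoM2 cells, against 7.53, 6.33 and 8.10 in untreated cells, and rose by 2.84 ± 0.57 (adjusted p = 0.026). Its other probe set differed by 0.27. The receptor Acvr1 rose by 1.11 ± 0.24, while its other probe sets differed by 0.345 and 0.03. The signal transducer Smad3 rose by 1.201 ± 0.25, although both other probe sets of Smad3 had the opposite sign (−0.14 and −0.15). All 7 antagonists tested had positive differences with a median of 1.54, Fst with 1.54 (adjusted p = 0.099) among them. Bmp2 and Bmp4 differed by −1.24 (adjusted p = 0.27) and −1.52 (adjusted p = 0.15), with all SmoM2 arrays below the untreated ones.

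Of 41 EGF, FGF and IGF pathway genes tested 1 rose and 4 fell, with a median of 0.16 (4 and 4 with the replicate block). Igfbp2, a binding protein of insulin-like growth factors, had 8.01, 6.41 and 8.14 in SmoM2 cells, against 11.30, 11.71 and 10.67 in untreated cells, and fell by 3.71 ± 0.78 (adjusted p = 0.030). Igfbp3 had 8.34, 5.88 and 8.43 in SmoM2 cells, against 10.06, 9.4997 and 11.004 in untreated cells, and fell by 2.64 ± 0.60 (adjusted p = 0.037). Their ligands' receptor Igf1r had 9.83, 10.05 and 9.70 in SmoM2 cells, against 8.33, 8.86 and 8.89 in untreated cells, and rose by 1.17 ± 0.23 (adjusted p = 0.026). The 2 binding proteins thus fell while the receptor rose. Fgf13, a non-secreted FGF relative, fell by 3.17 ± 0.62, and the receptor Fgfr3 fell by 1.35 ± 0.31.

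Axon guidance genes were split as well, with 4 of 37 higher and 1 lower and a median of 0.15 (6 and 2 with the replicate block). The 2 neuropilins, co-receptors of semaphorins and VEGF, moved in opposite directions. Nrp2 had 11.57, 9.35 and 11.14 in SmoM2 cells, against 7.46, 7.34 and 7.21 in untreated cells, and rose by 3.35 ± 0.73 (adjusted p = 0.033). Nrp1 had 5.498, 4.99 and 5.25 in SmoM2 cells, against 7.25, 7.89 and 6.88 in untreated cells, and fell by 2.09 ± 0.43 (adjusted p = 0.027). The semaphorin Sema5a rose by 2.05 ± 0.34, the secreted guidance cue Slit3 by 2.17 ± 0.44 and the ephrin receptor Ephb3 by 1.25 ± 0.19. In the Notch pathway none of 17 genes passed and the median was 0.10, with the ligand Dll1 at −0.93 (adjusted p = 0.21) and the effector Heyl at 0.52 (adjusted p = 0.21).

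Cell cycle genes did not rise at 4 weeks. Of 48 tested 1 rose and 1 fell, with a median of −0.35 (2 and 3 with the replicate block). The inhibitor Cdkn2b, which blocks the cyclin D kinases, had 8.87, 9.46 and 8.72 in SmoM2 cells, against 7.55, 7.42 and 7.94 in untreated cells, and rose by 1.38 ± 0.22 (adjusted p = 0.012). Mki67, the proliferation marker, had 11.54, 9.91 and 11.38 in SmoM2 cells, against 11.52, 10.98 and 11.36 in untreated cells, and its difference of −0.34 ± 0.54 did not pass (adjusted p = 0.87). SmoM2 replicate 2 was the lowest of the 6, and without it the difference was 0.17 (adjusted p = 0.92), so the sign rests on that array. All 15 mitosis genes and 12 of 13 replication genes had negative differences, none passed, and in every one of them the groups overlapped.

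Other programmes showed few or no calls. The 24 immediate-early and dissociation stress genes had a median of 0.42 and none passed, while Egr3 had 11.03, 11.08 and 11.03 in SmoM2 cells, against 9.55, 9.39 and 8.56 in untreated cells (difference 1.88, adjusted p = 0.069; 0.039 with the block, 0.018 to 0.25 over 20 alternatives). None of 15 antimicrobial and alarmin genes passed (median 0.16; 3 fell with the block). Stfa3, a cysteine protease inhibitor, had 6.0003, 8.13 and 10.82 in SmoM2 cells, against 12.08, 12.54 and 11.76 in untreated cells (difference −3.81, adjusted p = 0.060; 0.025 with the block, 0.013 to 0.18 over 20 alternatives). The β-defensin Defb1 had 7.64, 7.70 and 7.37 in SmoM2 cells, against 10.52, 9.80 and 9.62 in untreated cells (difference −2.41, adjusted p = 0.083; 0.031 with the block, 0.0077 to 0.23 over 20 alternatives). None of 21 interferon response genes (median −0.12) and none of 21 sterol and fatty acid synthesis genes (median 0.21; 1 rose with the block) passed.

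**Figure D4:**
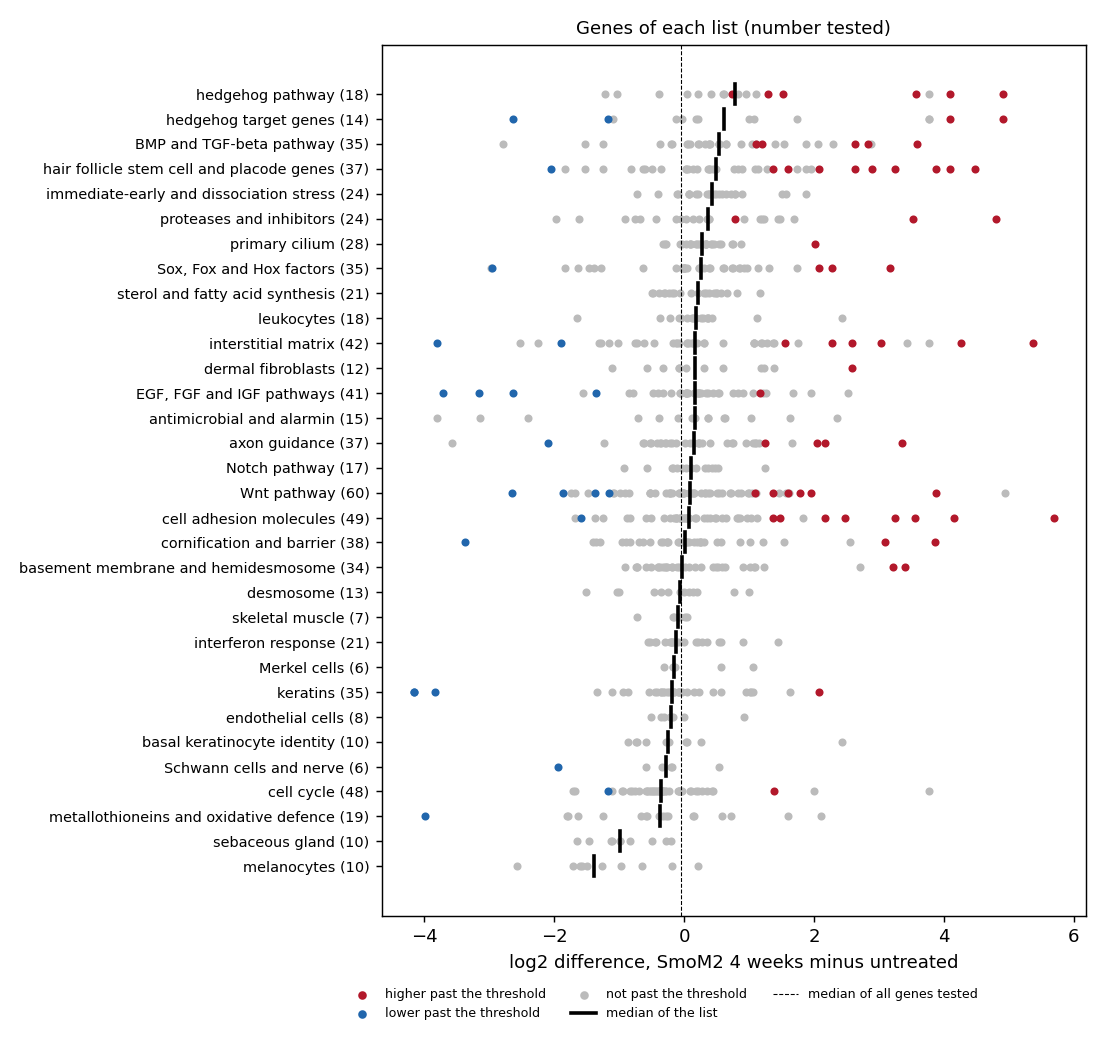
Each row is a gene list with the number tested in brackets, each point a gene's log2 difference (SmoM2 4 weeks minus untreated, horizontal axis), red and blue where it passed, the black bar the list's median and the dashed line the median of all genes tested. The hedgehog pathway has the highest median, 0.78, melanocyte genes the lowest, −1.39, and most lists centre within 0.5 of 0.

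Markers of other cells in the skin were measured beside these groups. The 11 melanocyte genes had a summed signal of 9.94 to 11.25 in SmoM2 cells, against 10.71 to 12.90 in untreated cells. Untreated replicate 2 was the highest, and the pigment enzyme Tyrp1 had 6.11, 5.14 and 8.64 in SmoM2 cells, against 8.23, 10.52 and 8.89 in untreated cells (difference −2.58, adjusted p = 0.22). The 10 sebaceous gland genes all had negative differences (median −0.99) and none passed (2 fell with the block), with sums of 13.50 to 14.44 in SmoM2 cells, against 14.20 to 14.85 in untreated cells. Mc5r, a melanocortin receptor of sebocytes, was the named gene among those 2 (difference −0.99, adjusted p = 0.18; 0.046 with the block, 0.046 to 0.43 over 20 alternatives). The leukocyte sum was 11.73 to 12.75 in SmoM2 cells, against 10.73 to 11.87 in untreated cells. Its largest contributor in SmoM2 cells, Epcam, is also an epithelial gene, with 11.07, 12.09 and 11.91 in SmoM2 cells, against 8.68, 8.75 and 10.34 in untreated cells (difference 2.43, adjusted p = 0.053). Without Epcam the leukocyte sum was 10.28, 10.91 and 11.56 in SmoM2 cells, against 10.33, 10.75 and 11.25 in untreated cells. The pan-leukocyte gene Ptprc lay between 4.05 and 6.13 in SmoM2 cells and between 4.16 and 5.01 in untreated cells.

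Of the 6 Schwann cell and nerve genes tested, Pmp22 fell by 1.94 ± 0.36 (adjusted p = 0.024) and the sum was 9.63 to 9.96 in SmoM2 cells, against 10.29 to 10.71 in untreated cells. Endothelial, Merkel cell and skeletal muscle genes had no calls, and the defining genes Cdh5, Atoh1, Krt20 and Myh4 lay under the 40th percentile in all 6 arrays. The endothelial gene Kdr lay above it in all 6 (5.67 to 6.83), as did the muscle genes Acta1 and Ckm, and the Merkel cell gene Isl1 lay above it in the 3 untreated arrays but in no SmoM2 array. The summed signal of 10 basal keratinocyte genes was 15.57 to 15.71 in SmoM2 cells, against 15.92 to 16.06 in untreated cells, with no call among them (2 fell with the block). The part of other cell types in the differences above was not tested.

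**Figure D5:**
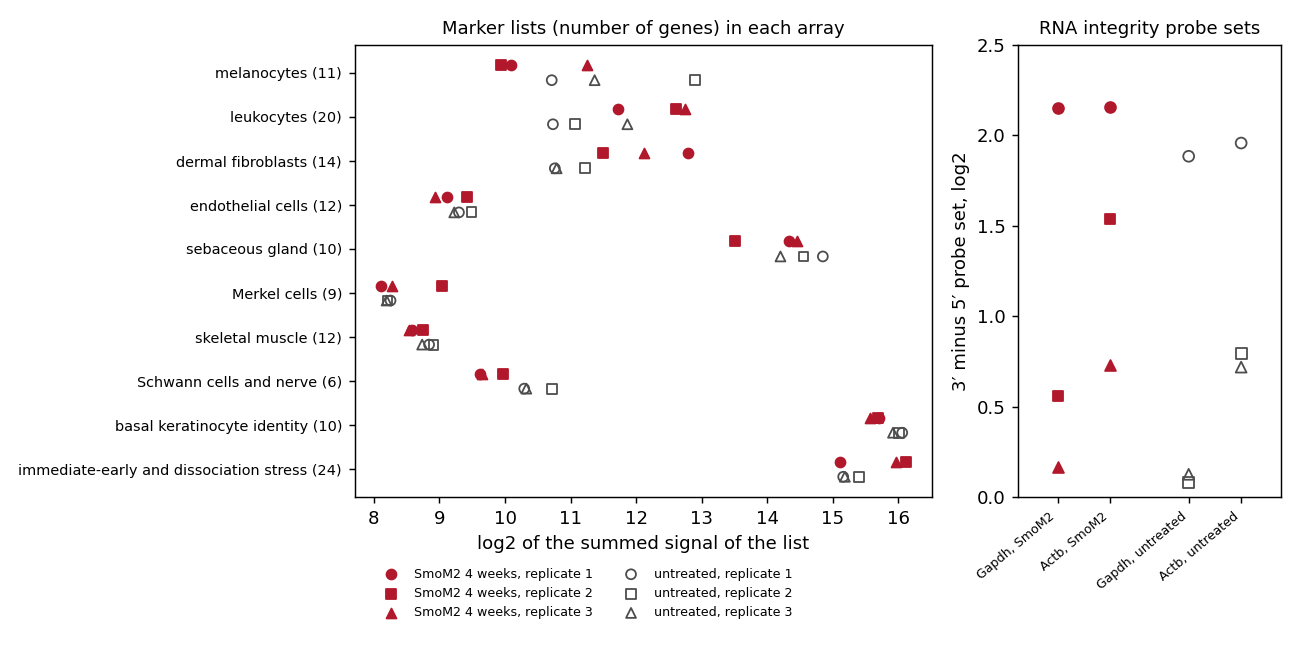
Left, the log2 of the summed signal of each marker list (number of genes in brackets) in each array; right, the log2 signal of the 3′ minus the 5′ probe set of Gapdh and Actb, with filled red symbols for SmoM2 arrays and open grey symbols for untreated arrays. Basal and Schwann cell sums are lower in all 3 SmoM2 arrays than in any untreated array, fibroblast sums are higher with Dcn among the 14 genes, and replicate 1 of either group has the largest 3′ excess for Gapdh.

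The remaining large changes fall outside these lists. Among the 15 largest rises were the intermediate filament protein Synm (4.02 ± 0.88), the actin-binding protein Synpo2 (4.04 ± 0.79), the cationic amino acid transporter Slc7a2 (3.94 ± 0.78), the proton pump subunit Atp6v1b1 (3.89 ± 0.87) and the transcript Gm5084 (4.07 ± 0.57). The 15 largest falls included Gdpd2, a membrane phosphodiesterase, which had 6.08, 4.62 and 5.83 in SmoM2 cells, against 9.48, 10.19 and 9.41 in untreated cells (difference −4.18 ± 0.90). Ugt8a, which makes galactosylceramide, differed by −3.90 ± 0.92, the sialic acid lyase Npl by −3.77 ± 0.79, the glutathione transferase Gsta2 by −3.71 ± 0.82, the carboxylesterase Ces2g by −3.59 ± 0.76, the peptidase relative Pm20d1 by −3.24 ± 0.61 and the glycoprotein Gpnmb by −3.14 ± 0.68.

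A direct contrast of SmoM2 cells at 4 weeks with those at 1 week (n = 3 each, same mouse line) called 0 of 14285 genes in limma. The lowest adjusted p was 0.997, and 688 genes had an unadjusted p under 0.05. No difference between 4 weeks and 1 week was thus detectable with these arrays by this test, which did not block on the replicate number.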

How the data were processed

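Per the labels' protocols, RNA of each sorted sample was amplified with Affymetrix's 3′ IVT express kit for expression arrays. The authors deposited log2 values of 45101 probe sets in 16 arrays. R 2.14.0 is named in the submitters' processing notes. How the arrays were normalized is not given in the sources used here. Platform annotation gave 34945 probe sets 1 gene, 932 several and 9224 none. For each of 18193 genes the probe set with the highest mean over the 16 arrays was kept, and the 14285 genes that exceeded an array's 40th percentile in at least 2 arrays were tested. Group means over the 14 IFE arrays were fitted with limma 3.58.1 in R 4.3.3 (lmFit, eBayes, Benjamini-Hochberg). On simulated data with the same groups and 14285 genes, the fit recovered 32% of genes changed by 1 log2 unit, 94% by 2, 100% by 3 and 98% by 4. It made 10 false calls. The simulated noise was independent, equal in every group and without an effect of the replicate number, so these shares may not hold for the real arrays. The number of arrays limits the precision.

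Members and gene lists were chosen with earlier results of these data known. Named genes are the 15 largest rises and 15 largest falls among called genes without overlap, up to 6 calls of each list (at least 2 by lowest adjusted p) and a fixed set. The genes that complete a count or illustrate a list beyond that rule were chosen after their values were seen. The main fit did not pair arrays. Equal replicate numbers in the sample titles were taken as pairs only in the replicate-block alternatives. Deviations from the group mean correlated by 0.57, 0.49 and 0.48 between SmoM2 and untreated arrays of the same number. For other numbers the correlations were −0.38 to −0.12. Because the deviations of a group cancel out for each gene, these negative values follow in part from the positive ones. They are no separate evidence of pairing. The alternatives were other normalizations, filters, probe sets and arrays, array weights, the Y-linked signal, a trended prior and replicate blocks.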

Additional observations from a re-analysis of the deposited data

How the results depend on the processing

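No call among the named genes changed sign in 20 alternatives, and of the 75 named genes called, 32 passed in all 14 that keep every array and 4 (Gli1, Lef1, Ptch1 and Tcf7l1) in all 20. The replicate block gave 873 calls (558 higher, 315 lower) over 14 arrays, 708 (274 lower) over the 6 arrays compared and 955 (550 higher, 405 lower) over 9 arrays, and 956 (630 higher, 326 lower) as a random block, against 463 (349 higher, 114 lower) without it. Over 14 arrays it changed no call among the genes named in the text beyond Itga6 and the 11 given with their blocked p. Itga6 fell with the block. The number of falls was 70 with array weights, 181 centred on the 75th percentile, 67 without a filter and 67 with the probe set of highest variance. Leaving out 1 array gave 13 to 410 calls, 13 to 290 rises and 0 to 120 falls, the fewest without untreated replicate 2, where no fall passed in limma. For 4 weeks against 1 week the count was 0, and 1 without SmoM2 replicate 3. With 1 array left out Mki67 ranged from −0.64 to 0.17 (without SmoM2 replicate 2) and the muscle gene Myoz1, at −0.17 with all arrays, from −0.42 to 0.064 (without untreated replicate 2), neither passing. The causes were not tested.

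Of the 75 named genes called, 45 had 92 other probe sets, and 5 of these had the opposite sign, 4 of them above the 40th percentile in at least 1 array, in Smad3, Stk36 and Tulp3. The deposited values carry no depth, and small changes are poorly resolved with 3 arrays a group.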

Other observations

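Groups of genes outside the lists also held several calls, named here after their values were seen. Several enzymes that fell handle foreign compounds or retinoids, with no count of the rest of that group. Among them the carboxylesterase Ces2f differed by −2.95 ± 0.68 and the monooxygenase Fmo1 by −2.05 ± 0.37. The alcohol dehydrogenase Adh6b differed by −2.85 ± 0.64 and the retinol dehydrogenase Sdr16c5 by −2.61 ± 0.47. Outside that group, the histamine methyltransferase Hnmt differed by −2.88 ± 0.62. Esr1, the estrogen receptor, had 7.21, 4.84 and 7.11 in SmoM2 cells, against 9.33, 8.88 and 9.995 in untreated cells, and fell by 3.01 ± 0.72 (limma adjusted p = 0.045). Kitl, the growth factor for melanocytes and mast cells, had 7.59, 6.36 and 7.87 in SmoM2 cells, against 9.68, 9.003 and 9.42 in untreated cells, and fell by 2.09 ± 0.48 (adjusted p = 0.037). The prostaglandin receptor Ptger3 differed by −2.78 ± 0.59, the nuclear receptor Rora by −2.51 ± 0.58, the neurotrophin receptor Ntrk2 by −1.91 ± 0.38 and the lymphatic growth factor Vegfd by −1.97 ± 0.44, and all passed. In Ces2f, Hnmt and Ptger3 all 3 SmoM2 signals lay under the 40th percentile of their array.

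Rises outside the lists included proteins of the actin and neuronal cytoskeleton: Synpo by 3.16 ± 0.72, Marcksl1 by 2.52 ± 0.57, Basp1 by 2.36 ± 0.55, the drebrin Dbn1 by 2.16 ± 0.31, the tubulin Tuba1a by 1.98 ± 0.38 and the kinesin Kif5c by 1.75 ± 0.42. Scnn1b, a sodium channel subunit that assembles with Scnn1g, had 9.54, 8.93 and 7.39 in SmoM2 cells, against 5.26, 5.20 and 5.09 in untreated cells, and rose by 3.44 ± 0.58 (adjusted p = 0.016). Endothelin Edn1 rose by 3.41 ± 0.52, the vitamin D activating enzyme Cyp27b1 (all 3 untreated signals under the 40th percentile) by 3.37 ± 0.53, the potassium channel Kcnj8 by 3.07 ± 0.62, the kinase Fyn by 2.95 ± 0.44 and the chromatin protein Hmga2 by 2.58 ± 0.41. All 11 protocadherin-β genes tested had positive differences with a median of 0.96, and 3 passed (Pcdhb9, Pcdhb20 and Pcdhb21). These genes are close relatives whose probe sets may share sequence.

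The hair follicle bulge was measured in 1 SmoM2 and 1 untreated array, with no replicate check. Of the 349 genes that rose in IFE, 45 (12.9%) were at least 2-fold higher in the SmoM2 bulge array, against 4.35% of all genes tested, and 19 (5.44%) were at least 2-fold lower, against 2.59%. Of the 114 that fell in IFE, 30 (26.3%) were at least 2-fold higher in the SmoM2 bulge array and 9 (7.89%) at least 2-fold lower. The median bulge difference was 0.05 for the genes that rose in IFE, 0.22 for those that fell and 0.01 for all. For all 6 hedgehog pathway genes that rose in IFE, the untreated bulge array lay above every untreated IFE array. Gli1 had 9.89 and Ptch1 12.57 in the untreated bulge array. A small bulge difference thus does not mean that a gene was low in bulge cells. Gsta2 and Adh6b, which fell in IFE, were 3.93 and 3.41 higher in the SmoM2 bulge array.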
